A study of Mus musculus with 6 samples.

Results

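The enzymes and regulators of sterol and fatty acid synthesis were examined in liver macrophages of mice in which Egr2, a zinc finger transcription factor, was deleted in myeloid cells. The set was given as a fixed list of 36 gene symbols, and a gene was a member if its symbol was a row of the deposited expression table. Of the 36 names, 35 were among the 13886 genes of the table, and Fdps was not analysed here. The sterol arm held 22 of these genes and the fatty acid arm held 13. The rule itself uses no measured value, but the list was drawn up with earlier results of these data known.

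Liver macrophages of Lyz2cre/+.Egr2fl/fl mice (3 libraries) and of Egr2fl/fl littermates (3 libraries) were sorted and their RNA was sequenced in bulk. All mice were fed CDA-HFD, a high-fat diet that lacks choline and has defined amino acids, which induces MASH (steatohepatitis of metabolic origin). In Lyz2cre/+.Egr2fl/fl mice, Cre recombinase is driven by the Lyz2 promoter, which is active in myeloid cells, and removes the floxed Egr2 alleles that both genotypes carry. No Cre is present in the Egr2fl/fl littermates, so an effect of Cre itself and of the loss of Egr2 cannot be told apart. The methods of the study describe a gate for CD11b+, Ly6G-, Ly6C low and F4/80+ cells; the labels give neither the age of the mice nor the weeks on the diet. Values are in TPM, a transcript measure corrected for gene length and library total. Levels are given ± SD over 3 libraries, and log2 differences ± their standard error.

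Cells make cholesterol from acetyl-CoA through mevalonate, squalene and lanosterol, and they make fatty acids from the same acetyl-CoA. When sterols in the endoplasmic reticulum are low, SCAP escorts the transcription factor SREBP-2 to the Golgi, where it is cleaved and released to switch on most genes of the sterol arm; when sterols are high, INSIG proteins hold SCAP back. SREBP-1 and the oxysterol receptor LXR drive genes of fatty acid synthesis, and lipid-loaded macrophages are known for taking up cholesterol from dead cells and sending it out again.

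The promoters of Insig1 and Hmgcs1, the 2 genes with the smallest p of the set, are shown because they carry the kinds of letters that are known to be bound by SREBP and its partner NF-Y. The sequences are from RefSeq on GRCm38.p6, 5′ to 3′ on the plus strand, and end before the first annotated start of the transcript. That of Insig1 spans chr5:28071162-28071362 and that of Hmgcs1 spans chr13:119690101-119690350. Capitals mark matches, on either strand, to the NF-Y box CCAAT, the sterol regulatory element TCACNCCAC, the E-box CACGTGA and the Egr site GCGNGGGCG, where a match on the other strand is written as the reverse complement of these letters.
Insig1 promoter: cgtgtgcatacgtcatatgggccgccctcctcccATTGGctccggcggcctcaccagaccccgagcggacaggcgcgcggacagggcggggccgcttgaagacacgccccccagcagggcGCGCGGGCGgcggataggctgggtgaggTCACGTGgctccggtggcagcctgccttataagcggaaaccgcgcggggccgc
Hmgcs1 promoter: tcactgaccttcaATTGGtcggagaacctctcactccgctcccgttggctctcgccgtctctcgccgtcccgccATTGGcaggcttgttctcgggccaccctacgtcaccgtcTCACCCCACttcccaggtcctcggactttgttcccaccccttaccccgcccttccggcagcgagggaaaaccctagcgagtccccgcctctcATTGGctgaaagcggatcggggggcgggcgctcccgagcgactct

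A promoter window of 300 bases (250 before the RefSeq start and 50 after it) was given for 31 of the 35 members, with more than 1 window for some genes and 40 windows in all. The NF-Y box was the most frequent of these motifs, in 17 of the 19 sterol genes and 8 of the 12 fatty acid genes that had a window, against 43.0% of the tested genes with a window and 37.4% of all windows of the same length. The sterol regulatory element was matched in Hmgcs1 and Acsl1, 2 of the 31 members (6.45%), against 1.35% of the tested genes with a window and 1.24% of all windows. The E-box was matched in Insig1, Hsd17b7, Sc5d and Elovl5, 4 of the 31 members (12.9%), against 7.18% of the tested genes with a window and 3.77% of all windows. These counts describe letters in a window and not binding.

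The Egr site was matched in 5 of the 31 members (16.1%), against 11.9% of the tested genes with a window and 5.55% of all windows. Its windows are shown because Egr2 is the factor that was removed; each is written on the strand of the gene, with a match on either strand in capitals.
Insig1 chr5:28071274-28071298: agcagggcGCGCGGGCGgcggatag
Dhcr7 chr7:143823012-143823036: tgagacccCGCCCCCGCggagatcc
Dhcr7 chr7:143830015-143830039: ccccagggGCGTGGGCGgggcgtgg
Scap chr9:110333374-110333398: ggggagctGCGCGGGCGccgggcgg
Elovl1 chr4:118429641-118429665: ccaacgtaGCGGGGGCGggaggagg
Me1 chr9:86695945-86695969: cggagcccCGCCCCCGCcccctcgc
Of these 5 genes, Insig1 was the only one whose libraries did not overlap between the genotypes. Among all tested genes, 8.27% were lower and 17.0% were higher without overlap. A link between the site and expression was not tested. The differences of all 5 genes are given with the other members.

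The labels were checked first. Egr2 was at 9.08, 9.64 and 10.5 TPM in Lyz2cre/+.Egr2fl/fl macrophages, against 123, 120.2 and 126 TPM in Egr2fl/fl macrophages (log2 difference -3.53 ± 0.08, limma adjusted p = 5.75e-06). The 12 pan-macrophage genes summed to 27779 to 28228 TPM in Lyz2cre/+.Egr2fl/fl libraries against 27810 to 31124 TPM in Egr2fl/fl libraries. Of these, 4 were higher (Adgre1, Fcgr1, Mertk and C1qc) and 1 was lower, Lyz2 (-0.72 ± 0.06, adjusted p = 0.0013), the gene whose promoter drives Cre. Markers of other cells and states moved with genotype. Of 32 endothelial genes tested, 31 were higher and 1 was lower (Fcgr2b, which macrophages also express). Their summed level was 1164 to 1281 TPM in Lyz2cre/+.Egr2fl/fl libraries against 483 to 526 TPM in Egr2fl/fl libraries. Fcgr2b alone was at 243, 233 and 254 TPM in Lyz2cre/+.Egr2fl/fl libraries, against 298, 317 and 289 TPM in Egr2fl/fl libraries. It was the larger part of the Egr2fl/fl sums, so these sums understate the shift of the other endothelial genes. Of 14 Kupffer cell markers 12 were higher (summed 6998 to 8296 TPM against 3308 to 3809 TPM), and of 13 markers of hepatic lipid-associated macrophages 9 were lower (summed 10599 to 11668 TPM against 13364 to 14455 TPM). Hepatocyte transcripts summed to 248 to 443 TPM in Lyz2cre/+.Egr2fl/fl libraries and to 278 to 1187 TPM in Egr2fl/fl libraries, where replicate 3 stood apart at 1187 TPM. Ass1 was the only one of 25 such genes that passed the test, and it was lower. Its level was 116, 102 and 131 TPM in Egr2fl/fl libraries, where Alb was at 117, 49.1 and 365 TPM. Both were lowest in Egr2fl/fl replicate 2 and highest in replicate 3, and Ass1 varied less between these libraries than Alb. The cell source of Ass1 was not tested. Among the rarer lists, 1 of 10 stellate genes tested (Ecm1) and 1 of 5 lymphoid genes (Cd79b) were higher. Klrb1c, also of the lymphoid list, and 2 of 5 neutrophil genes (S100a8 and S100a9) were lower. Summed levels were at most 165, 66.7 and 182 TPM for the stellate, lymphoid and neutrophil lists. Ecm1 alone averaged 134 TPM in Lyz2cre/+.Egr2fl/fl and 105 TPM in Egr2fl/fl libraries, and Cd79b 57.4 and 37.8 TPM. Csf3r, of the neutrophil list, averaged 133 and 152 TPM and did not pass (limma adjusted p = 0.136). The stellate, lymphoid and neutrophil sums thus rest mainly on 1 gene each. S100a8 and S100a9 were low in both genotypes, at means of 1.73 and 0.449 TPM in Lyz2cre/+.Egr2fl/fl libraries against 6.24 and 3.19 TPM in Egr2fl/fl libraries. No listed marker that was in the table was at 0 in every library. The part of these shifts in the values below was not tested, and in bulk samples fewer cells of a type and less RNA per cell cannot be told apart.

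Expression of the sterol and fatty acid genes differed little between the genotypes. No member passed the threshold (limma on log2(TPM + 1), adjusted p below 0.05 over all genes tested): 0 of 35 were higher and 0 were lower, while 6.24% of all 13777 tested genes passed, 4.38% higher and 1.87% lower. At an unadjusted p below 0.05, 7 of the 35 members passed (20%), against 19.6% of all tested genes. The totals were close, but the directions were not alike. Of the 7 members, 6 were lower and 1 was higher, while 6.5% of all tested genes were lower and 13.1% were higher. This difference in direction was not tested. At an adjusted p below 0.1, 1 member passed (Insig1), against 9.02% of all tested genes. A voom fit on whole reads recovered from the TPM values called 2 members, Insig1 and Hmgcs1, both lower, where 8.41% of all genes passed and 2.77% were lower.

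The differences were also small in size. The largest was -0.34 on the log2 scale (Hmgcs1), and 0 of 35 members differed by more than 0.5, against 13.8% of all tested genes. The 95% interval of every member lay within a 2-fold change in either direction, as it did for 79.7% of all genes, and the extreme bounds were -0.90 for Fads2 and 0.69 for Mvk. The median difference was -0.16 over the sterol genes, of which 16 of 22 were below 0, and -0.06 over the fatty acid genes, of which 8 of 13 were below 0. Over all genes tested the median was 0.04 and 41.7% were below 0. The spread between libraries was similar in both genotypes, with a median coefficient of variation over the members of 8.73% in Lyz2cre/+.Egr2fl/fl macrophages and 8.24% in Egr2fl/fl macrophages.

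**Figure D1:**
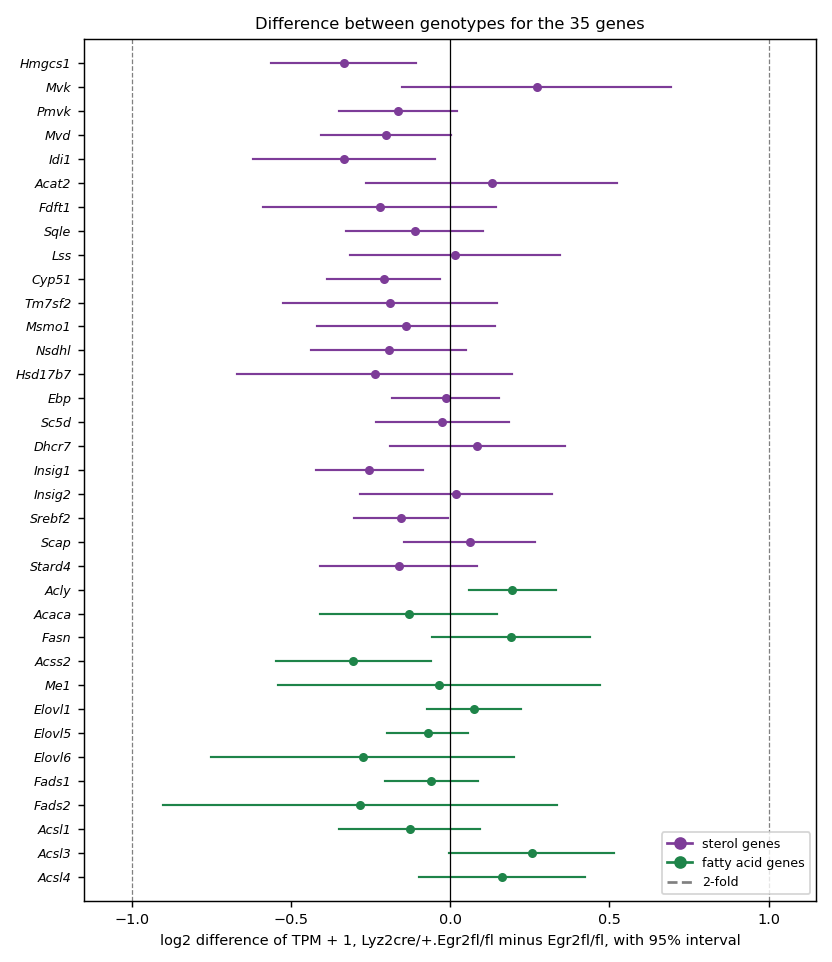
Log2 difference of each of the 35 members (Lyz2cre/+.Egr2fl/fl minus Egr2fl/fl, on log2(TPM + 1)) with its 95% interval, by arm. The sterol genes run from -0.34 to 0.27 and the fatty acid genes from -0.30 to 0.26, and no member passed the adjusted threshold.

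The first steps of the sterol arm make mevalonate and turn it into isoprenoid units. HMG-CoA synthase, Hmgcs1, which joins acetyl-CoA to acetoacetyl-CoA, was at 36.2, 34.7 and 39.2 TPM in Lyz2cre/+.Egr2fl/fl macrophages, against 47.1, 41.6 and 51.5 TPM in Egr2fl/fl macrophages. Each Lyz2cre/+.Egr2fl/fl library was below each Egr2fl/fl library, and the log2 difference was -0.34 ± 0.10 (95% interval -0.56 to -0.11, limma adjusted p = 0.106). The voom fit gave -0.38 (adjusted p = 0.0355, with 0.0355 to 0.254 over 17 alternatives). With a library left out in turn, limma gave -0.41 to -0.26 (adjusted p = 0.0697 to 0.254). The smallest difference (-0.26, adjusted p = 0.244) was without Egr2fl/fl replicate 3, the library with the most hepatocyte transcripts. The largest adjusted p was without Lyz2cre/+.Egr2fl/fl replicate 1 (-0.33, adjusted p = 0.254). Idi1, isopentenyl diphosphate isomerase, was at 10.3, 10.3 and 12.5 TPM in Lyz2cre/+.Egr2fl/fl macrophages, against 14.9, 14.7 and 12.8 TPM in Egr2fl/fl macrophages (-0.33 ± 0.12, adjusted p = 0.185). The groups did not overlap, though the third libraries of both lay close together.

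Mvd, mevalonate diphosphate decarboxylase, was at 30.7, 29.6 and 29.7 TPM in Lyz2cre/+.Egr2fl/fl macrophages, against 31.0, 36.2 and 37.1 TPM in Egr2fl/fl macrophages (-0.20 ± 0.09, adjusted p = 0.262). Pmvk, phosphomevalonate kinase, was at 18.2, 19.0 and 18.7 TPM in Lyz2cre/+.Egr2fl/fl macrophages, against 21.8, 20.6 and 20.6 TPM in Egr2fl/fl macrophages (-0.16 ± 0.08, adjusted p = 0.314). Neither enzyme overlapped between the genotypes, and both differences were small beside the mean. Mevalonate kinase, Mvk, lay on the other side of 0, with an estimate of 0.27 ± 0.18 and overlapping groups. It was 0.12 without Lyz2cre/+.Egr2fl/fl replicate 3 and 0.46 without Lyz2cre/+.Egr2fl/fl replicate 1. Acat2, the cytosolic thiolase that supplies acetoacetyl-CoA, overlapped as well (0.13 ± 0.17).

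Squalene epoxidase, Sqle, which adds the first oxygen to squalene, was at 29.1, 31.0 and 27.6 TPM in Lyz2cre/+.Egr2fl/fl macrophages, against 34.4, 28.7 and 32.0 TPM in Egr2fl/fl macrophages. These groups overlapped (-0.11 ± 0.09, adjusted p = 0.577). Squalene synthase, Fdft1, overlapped as well (-0.22 ± 0.16). Its exons overlap those of Ctsb on the opposite strand, and neither the strand setting of the counting nor, beyond doubt, a strand-marking kit is given in the sources used here.

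The next enzymes turn lanosterol into cholesterol. Cyp51, which removes a methyl group of lanosterol, was at 32.8, 34.3 and 33.5 TPM in Lyz2cre/+.Egr2fl/fl macrophages, against 41.0, 36.05 and 39.96 TPM in Egr2fl/fl macrophages. Every Lyz2cre/+.Egr2fl/fl library was below every Egr2fl/fl library, by a margin that was narrow at replicate 2 of both (-0.21 ± 0.08, 95% interval -0.39 to -0.03, adjusted p = 0.181). Ebp, the sterol isomerase and the most abundant enzyme of the sterol arm, was at 68.9, 76.5 and 71.1 TPM in Lyz2cre/+.Egr2fl/fl macrophages, against 78.1, 70.5 and 70.1 TPM in Egr2fl/fl macrophages. The groups lay over each other, and the estimate was -0.01 ± 0.07 with a 95% interval of -0.18 to 0.15. Dhcr7, which makes cholesterol from 7-dehydrocholesterol and whose windows hold 2 Egr sites, overlapped too (0.09 ± 0.12, adjusted p = 0.758).

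The most abundant members of the arm were the regulators Insig1 and Srebf2. Insig1, itself a target of SREBP-2, was at 120.3, 142 and 129 TPM in Lyz2cre/+.Egr2fl/fl macrophages, against 162, 154 and 151 TPM in Egr2fl/fl macrophages. The groups did not overlap, and the difference had the smallest p of the set (-0.25 ± 0.07, 95% interval -0.42 to -0.09, limma adjusted p = 0.0991). The voom fit gave -0.29 (adjusted p = 0.0352, with 0.0352 to 0.253 over 17 alternatives). Insig2, the form that is not induced by SREBP-2, was at 21.2, 17.4 and 17.3 TPM in Lyz2cre/+.Egr2fl/fl macrophages, against 19.2, 15.8 and 20.2 TPM in Egr2fl/fl macrophages (0.02 ± 0.13, with the sign turned to -0.03 by median-of-ratios scaling). Its groups overlapped.

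Srebf2, which encodes SREBP-2, was at 93.9, 100.3 and 106 TPM in Lyz2cre/+.Egr2fl/fl macrophages, against 108, 114 and 112 TPM in Egr2fl/fl macrophages. The highest Lyz2cre/+.Egr2fl/fl library lay just below the lowest Egr2fl/fl library (-0.15 ± 0.06, 95% interval -0.30 to -0.01, adjusted p = 0.237). Scap was at 31.6, 32.3 and 32.4 TPM in Lyz2cre/+.Egr2fl/fl macrophages, against 33.2, 31.7 and 27.5 TPM in Egr2fl/fl macrophages (0.06 ± 0.09, adjusted p = 0.770). The groups of this escort protein overlapped.

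The 11 sterol genes not given by library were Mvk, Fdft1, Lss, Tm7sf2, Msmo1, Nsdhl, Hsd17b7, Sc5d, Dhcr7, Acat2 and Stard4. Their mean levels ran from 3.23 to 56.0 TPM, their log2 differences from -0.24 to 0.27 and their adjusted p from 0.373 to 0.975. All 11 overlapped between the genotypes.

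**Figure D2:**
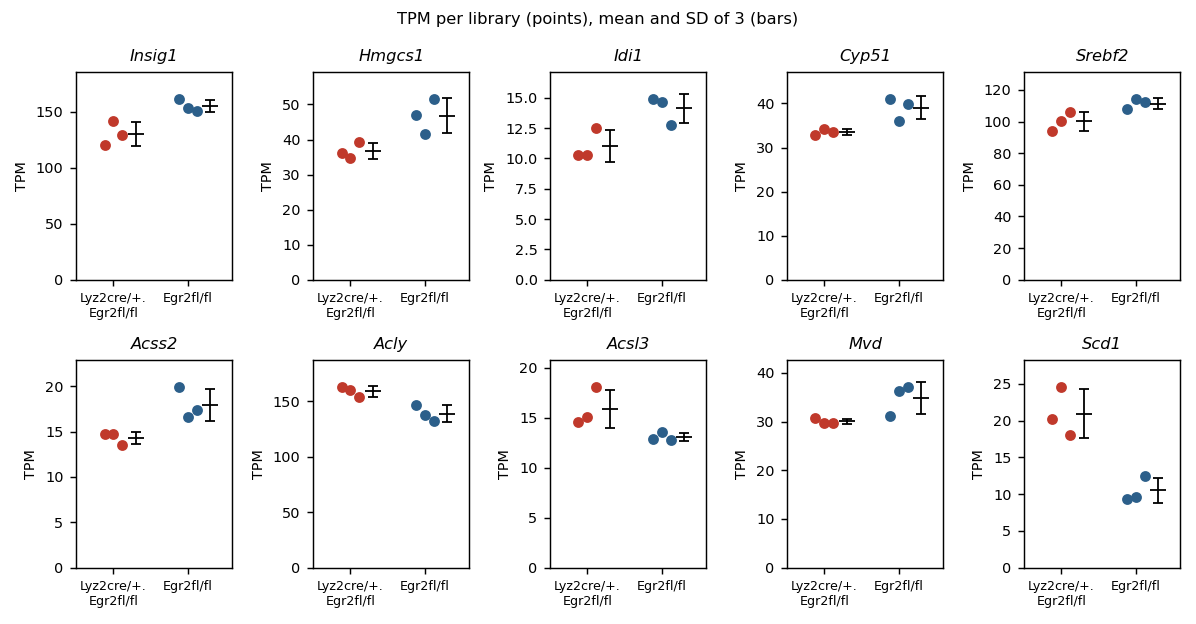
TPM of 9 members and of Scd1, from the pathway lists, in each of the 6 libraries (points), with Lyz2cre/+.Egr2fl/fl left of Egr2fl/fl and the mean and SD of 3 libraries beside the points. Insig1 lies at 120.3 to 142 TPM in Lyz2cre/+.Egr2fl/fl libraries against 151 to 162 TPM in Egr2fl/fl libraries, and Acly lies the other way, at 154 to 163 TPM against 132 to 147 TPM.

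Summed over the 22 sterol genes, expression was 668, 730.3 and 709 TPM in Lyz2cre/+.Egr2fl/fl macrophages, against 789, 761 and 778 TPM in Egr2fl/fl macrophages. The means were 703 ± 31.8 TPM and 776 ± 14.4 TPM, a ratio of 0.905, and each Lyz2cre/+.Egr2fl/fl library was below each Egr2fl/fl library. With a library left out in turn, which was chosen after seeing the data, the ratio stayed between 0.887 and 0.927. The sum over the 13 fatty acid genes was 651, 635 and 663 TPM in Lyz2cre/+.Egr2fl/fl macrophages, against 653, 628 and 607 TPM in Egr2fl/fl macrophages, with overlapping groups and a ratio of 1.03. Abundant genes carry most of both sums, and no test was run on them.

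**Figure D3:**
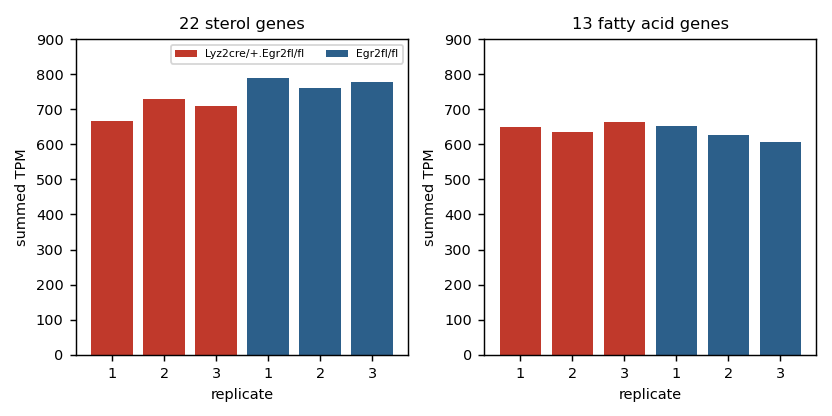
Summed TPM of the 22 sterol genes and of the 13 fatty acid genes in each library, with bars from 0 and Lyz2cre/+.Egr2fl/fl libraries left of Egr2fl/fl libraries. The sterol sums are 668 to 730.3 TPM against 761 to 789 TPM, and the fatty acid sums overlap.

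In the fatty acid arm, the 2 enzymes that make cytosolic acetyl-CoA lay on opposite sides of 0. Acly, which splits citrate, was at 163, 159.95 and 154 TPM in Lyz2cre/+.Egr2fl/fl macrophages, against 147, 137 and 132 TPM in Egr2fl/fl macrophages. Each Lyz2cre/+.Egr2fl/fl library was above each Egr2fl/fl library (0.20 ± 0.06, 95% interval 0.06 to 0.33, adjusted p = 0.117). Acss2, which makes acetyl-CoA from acetate and is a known SREBP target, was at 14.7, 14.7 and 13.5 TPM in Lyz2cre/+.Egr2fl/fl macrophages, against 19.9, 16.6 and 17.3 TPM in Egr2fl/fl macrophages. Here each Lyz2cre/+.Egr2fl/fl library was below each Egr2fl/fl library (-0.30 ± 0.10, 95% interval -0.55 to -0.06, adjusted p = 0.158). The difference between these enzymes was not tested.

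The enzymes that build the chain overlapped between the genotypes. Acetyl-CoA carboxylase, Acaca, which makes malonyl-CoA, was at 13.3, 12.3 and 14.8 TPM in Lyz2cre/+.Egr2fl/fl macrophages, against 16.0, 15.5 and 13.1 TPM in Egr2fl/fl macrophages (-0.13 ± 0.12, adjusted p = 0.616). Fatty acid synthase, Fasn, which makes palmitate, was at 18.2, 19.6 and 20.5 TPM in Lyz2cre/+.Egr2fl/fl macrophages, against 18.5, 17.3 and 15.0 TPM in Egr2fl/fl macrophages (0.19 ± 0.11, adjusted p = 0.394). Both enzymes were far less abundant than Acly. Malic enzyme, Me1, a source of NADPH, had the fewest reads of the set (at least 173 over all libraries, against at least 11871 for Acly), and its interval was wide (-0.03 ± 0.21, 95% interval -0.54 to 0.47).

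Chains are lengthened by elongases. Elovl1, which acts on very long chains, was at 151, 150.3 and 153 TPM in Lyz2cre/+.Egr2fl/fl macrophages, against 152, 147 and 132 TPM in Egr2fl/fl macrophages (0.08 ± 0.06, adjusted p = 0.586). Elovl5, which acts on polyunsaturated chains, was at 109, 111 and 114.75 TPM in Lyz2cre/+.Egr2fl/fl macrophages, against 114.81, 122 and 114.76 TPM in Egr2fl/fl macrophages (-0.07 ± 0.05, adjusted p = 0.546). The groups of Elovl1 overlapped. Those of Elovl5 were nearly tied, with Lyz2cre/+.Egr2fl/fl replicate 3 just below Egr2fl/fl replicates 1 and 3. Elovl6, which lengthens palmitate, was low in all libraries (-0.28 ± 0.20, adjusted p = 0.532). Its groups did not overlap, but only by 3.451 TPM in Lyz2cre/+.Egr2fl/fl replicate 3 against 3.459 TPM in Egr2fl/fl replicate 1. The desaturases of polyunsaturated fatty acids, Fads1 and Fads2, overlapped, and Fads2 (-0.28 ± 0.26) was at -0.08 without Lyz2cre/+.Egr2fl/fl replicate 1 and -0.45 without Lyz2cre/+.Egr2fl/fl replicate 3.

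Acyl-CoA synthetases activate free fatty acids. Acsl3, found on lipid droplets, was at 14.6, 15.1 and 18.1 TPM in Lyz2cre/+.Egr2fl/fl macrophages, against 12.9, 13.6 and 12.8 TPM in Egr2fl/fl macrophages. Each Lyz2cre/+.Egr2fl/fl library was above each Egr2fl/fl library (0.26 ± 0.11, 95% interval -0.00 to 0.52, adjusted p = 0.259). Its exons overlap those of Utp14b on the same strand. Acsl1 and Acsl4 overlapped, at -0.13 ± 0.09 and 0.16 ± 0.11.

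The 6 fatty acid genes not given by library were Me1, Elovl6, Fads1, Fads2, Acsl1 and Acsl4, with mean levels of 2.74 to 66.4 TPM, log2 differences of -0.28 to 0.16 and adjusted p of 0.499 to 0.958. Of all 35 members, 5 had a mean of at least 100 TPM and 7 were below 10 TPM. For 6 members (Fdft1, Cyp51, Tm7sf2, Acss2, Elovl1 and Acsl3) the annotated exons overlap those of another gene of the table. How reads in the shared stretches were counted is not known.

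**Figure D4:**
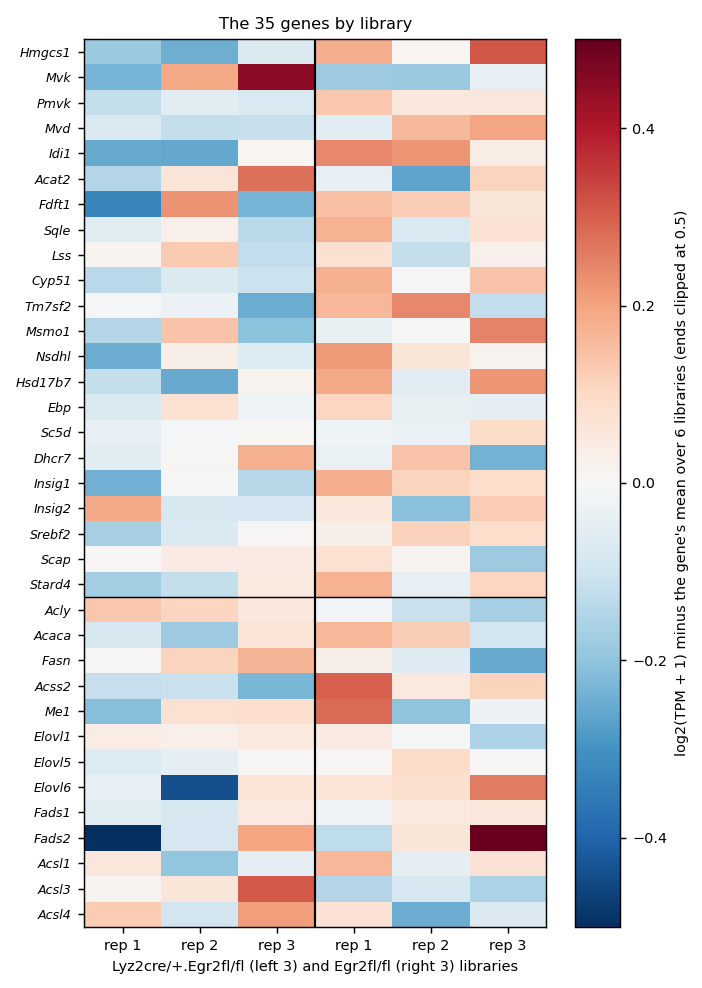
Log2(TPM + 1) of each member in each library minus the mean of the member over the 6 libraries, with Lyz2cre/+.Egr2fl/fl columns left of Egr2fl/fl columns. The colour scale ends at 0.5 in either direction. Blue cells on the left and red cells on the right mark members such as Hmgcs1 and Acss2, whereas rows such as Ebp and Sc5d stay near 0 in all 6 libraries.

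Counted over the set, the libraries of the genotypes did not overlap for 10 members that were lower (Hmgcs1, Pmvk, Mvd, Idi1, Cyp51, Insig1, Srebf2, Acss2, Elovl5 and Elovl6) and for 2 that were higher (Acly and Acsl3). Of the 10, 7 were sterol genes. The groups of Elovl5 and of Elovl6 were nearly tied. Among all tested genes, 8.27% were lower and 17.0% were higher without overlap. Whether these shares differ from those of the members was not tested.

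Other genes of these pathways were read from lists. By limma 0 of 21 other sterol pathway genes passed, with 4 at an unadjusted p below 0.05 (3 lower, 1 higher), 1 called lower by voom and a median of 0.01. Mbtps1, the protease that cuts SREBPs in the Golgi, was at 0.14 ± 0.06 (adjusted p = 0.213). In the isoprenoid branch, which serves protein prenylation, dolichol and ubiquinone, 0 of 13 genes passed by limma and 0 by voom, with 4 at an unadjusted p below 0.05 and a median of 0.07, and Dhdds, Rabggta and Rabggtb had the smallest p (0.20, 0.22 and -0.15, adjusted p = 0.199, 0.202 and 0.246).

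Of 20 other fatty acid synthesis genes, 1 was higher and 0 were lower by limma (median 0.04), with 5 at an unadjusted p below 0.05 (3 higher, 2 lower), and voom called 1 higher (Scd1) and 1 lower (Lpin1). The one that rose was Scd1, stearoyl-CoA desaturase, which makes oleate and is a target of SREBP-1 and LXR. It was at 20.3, 24.6 and 18.02 TPM in Lyz2cre/+.Egr2fl/fl macrophages, against 9.39, 9.67 and 12.5 TPM in Egr2fl/fl macrophages, with each Lyz2cre/+.Egr2fl/fl library above each Egr2fl/fl library (0.93 ± 0.15, 95% interval 0.57 to 1.29, limma adjusted p = 0.0153). It stayed past the threshold in 3 of 6 fits with a library left out, and missed it without Lyz2cre/+.Egr2fl/fl replicate 1 (adjusted p = 0.0623), Egr2fl/fl replicate 1 (0.0566) or Egr2fl/fl replicate 2 (0.0549). Its paralog Scd2 was at 76.2, 85.3 and 83.2 TPM in Lyz2cre/+.Egr2fl/fl macrophages, against 89.3, 76.5 and 79.2 TPM in Egr2fl/fl macrophages, and overlapped. Srebf1, which encodes SREBP-1, was at 88.1, 93.7 and 95.3 TPM in Lyz2cre/+.Egr2fl/fl macrophages, against 95.4, 90.9 and 84.6 TPM in Egr2fl/fl macrophages (0.03 ± 0.07, with the sign turned to -0.02 by median-of-ratios scaling). Lpin1, a phosphatidate phosphatase, Tecr, a reductase of the elongation cycle, and the acyl-CoA synthetase Acsl5 did not pass by limma (-0.35, 0.20 and 0.15, adjusted p = 0.152, 0.169 and 0.172). For Lpin1 the voom fit gave -0.41 (adjusted p = 0.0361, with 0.0361 to 0.376 over 17 alternatives).

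Of 15 genes of cholesterol export, storage and oxysterol response, 2 were higher and 1 was lower (median 0.06). Pltp, phospholipid transfer protein and an LXR target, was at 835, 742 and 791 TPM in Lyz2cre/+.Egr2fl/fl macrophages, against 512, 515 and 449 TPM in Egr2fl/fl macrophages (0.68 ± 0.07, adjusted p = 0.00297), and passed in all 6 fits with a library left out. Nr1h3, which encodes LXR alpha and is also one of the Kupffer cell markers, was at 489.98, 497 and 461 TPM in Lyz2cre/+.Egr2fl/fl macrophages, against 408, 409.9 and 393 TPM in Egr2fl/fl macrophages (0.26 ± 0.05, adjusted p = 0.0248). Lipa, the lysosomal acid lipase that frees cholesterol from its esters, was lower at 1376, 1347 and 1305 TPM in Lyz2cre/+.Egr2fl/fl macrophages, against 1557, 1548 and 1524 TPM in Egr2fl/fl macrophages (-0.20 ± 0.04, adjusted p = 0.0319). The calls of Nr1h3 and Lipa depended on the libraries and on the fit. With a library left out, Nr1h3 passed only without Lyz2cre/+.Egr2fl/fl replicate 3 and otherwise had an adjusted p up to 0.108, and Lipa passed in 0 of 6 fits (adjusted p = 0.0700 to 0.106). With all libraries, both missed the threshold in limma without the trend (adjusted p = 0.121 for Nr1h3 and 0.177 for Lipa) and with median-of-ratios scaling (0.136 and 0.0558), and Lipa did with quantile scaling (0.0604). Apoe and the cholesterol exporter Abca1 did not pass (0.18 and 0.25, adjusted p = 0.153 and 0.201).

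Of 21 genes of fatty acid oxidation, 0 passed by limma and 0 by voom, with 3 at an unadjusted p below 0.05 and a median of 0.06. Cpt2, of the carnitine shuttle, had the smallest p (0.54 ± 0.14, adjusted p = 0.0859), followed by the thiolases Acaa1a and Acaa2 (-0.20 and -0.17, adjusted p = 0.162 and 0.243).

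**Figure D5:**
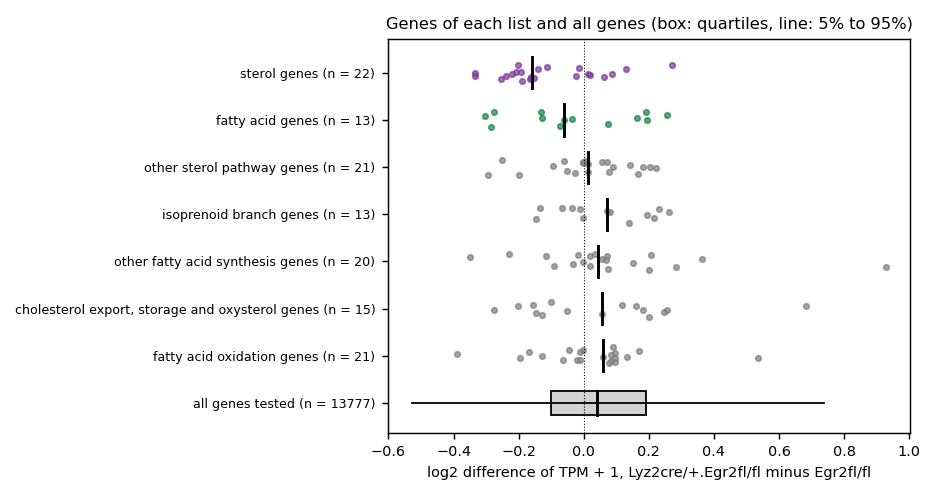
Log2 difference (Lyz2cre/+.Egr2fl/fl minus Egr2fl/fl) of every tested gene of both arms and of the 5 pathway lists, with the median of each and, for all 13777 tested genes, the quantiles. The members lie within -0.34 to 0.27, while Scd1 (0.93) and Pltp (0.68) lie above the rest of their lists.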

How the data were processed

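Per the labels, total RNA was isolated with RNeasy Micro columns and libraries were directional. The methods of the study instead name SMART-Seq HT with Nextera XT, which do not keep strand, for bulk libraries in general and a directional kit only for another sort, so whether reads from opposite strands could be separated here is not settled. According to the submitters' notes and the methods, reads were trimmed (Trimmomatic 0.39.0), aligned (HISAT2 2.2.1, GRCm38, mm10), freed of duplicates and assigned to genes (featureCounts 2.0.1). The authors then turned gene counts into TPM, and their deposited TPM table was used as it stands. TPM is relative to the library total, so a gene can be lower because others are higher.

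The 13777 genes that averaged 1 TPM or more, all 35 members among them, were compared on log2(TPM + 1) in limma 3.58.1 under R 4.3.3 (lmFit, then eBayes with trend), without covariates, 2-sided, with Benjamini-Hochberg adjustment over all genes tested and a threshold of 0.05. The pseudocount shrinks differences of genes with low values. The labels gave the genotype of each library. Nothing in the labels says more about the replicates than that they are biological, and p-values measure the spread between these libraries. TPM steps gave whole reads for 100% of the 13886 genes (tolerance 0.001 of a read); these reads are lower bounds, with 6497770 to 8569062 per library, and were used for the voom fit.

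Members and gene lists were chosen with earlier results of these data known. Values by library are given for the members that passed, the 10 with the smallest p, the 3 most abundant of each arm, Srebf2, Scap, Insig1, Insig2, Hmgcs1, Sqle, Acaca and Fasn. Of the lists, they are given for genes that passed and for Srebf1, Scd1 and Scd2. Up to 3 more genes of each list, by p, are given by log2 difference and adjusted p. A few genes that this rule names are not reported here. Promoters are those of RefSeq on GRCm38.p6, and exon overlaps are from GENCODE vM21 on GRCm38. Alternatives covered the pseudocount, the filter, scaling, the variance model, a replicate block, each library left out, the threshold and voom.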

Additional observations from a re-analysis of the deposited data

How the results depend on the processing

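No member was higher under any alternative run, and members were lower only in the voom fit (2) and at an adjusted p below 0.1 (1, Insig1, where 9.02% of all genes passed). Over all genes, 603 were higher and 257 lower. These counts were 243 and 98 at an adjusted p below 0.01, 303 to 437 and 136 to 202 with a library left out, and 160 lower without the trend. The ratio of the fatty acid sums (1.03) was 0.994 with median-of-ratios scaling and 0.978 from the mean of log2 values, and 1.01 to 1.05 with a library left out. Median-of-ratios scaling moved the median of all genes to -0.01 and that of the sterol genes to -0.21, with 18 of 22 below 0; 63.0% of its calls were higher, against 70.1% in the reported fit. Of the 35 members, 7 changed sign under some setting, with estimates of -0.03 to 0.09 in the reported fit. Lss was at -0.032 (median-of-ratios), -0.069 (quantile) and -0.028 (voom), and Insig2 at -0.033, -0.045 and -0.021. With a library left out, Lss ran from -0.048 to 0.079, Insig2 from -0.081 to 0.087, Ebp from -0.056 to 0.036, Sc5d from -0.047 to 0.014, Dhcr7 from -0.012 to 0.18, Scap from -0.015 to 0.12, Me1 from -0.14 to 0.098, Scd2 from -0.046 to 0.064 and Srebf1 from -0.012 to 0.073. Srebf1 was at -0.020 with median-of-ratios scaling. Precision is limited by 3 libraries per genotype and, for Me1, Fads2, Tm7sf2 and Hsd17b7, by few reads.

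Replicate numbers are those of the sample titles; the Egr2fl/fl library titled replicate 3 is headed WT4 in the table, so the third pair sets cKO3 beside WT4. The numbers did not pair the libraries: same-numbered libraries correlated at -0.0261, 0.0655 and -0.00615 in their deviations from the group means. With the number as a replicate block, 301 genes were higher and 130 lower, 0 members passed, and the adjusted p of Scd1 was 0.0671, of Nr1h3 0.0625 and of Lipa 0.0884.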
